A study of Mus musculus with 4 samples.

Results

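The genes described here are 33 genes of the transforming growth factor beta (TGF-beta) and bone morphogenetic protein (BMP) superfamily, chosen by name from 21938 protein-coding genes of the mouse annotation. Transcription initiation at these genes was mapped by PRO-seq, a nuclear run-on assay that sequences the nascent RNA of engaged polymerases, in embryonic liver and yolk sac. There were 2 libraries per tissue, all from embryos at stage E14.5, each made from the tissue of 6 pooled embryos. Mothers of the C57BL/6J strain were mated with fathers of a mixed C57BL/6J and CAST/EiJ background, selected for CAST/EiJ alleles of the chromosome 12 region that holds Dlk1 and Gtl2, and this cross was shared by both tissues. Whether the 2 pools of a tissue came from separate litters is not given in the labels. The values are lists of dREG peaks, 1 list per library, where dREG is a classifier that finds initiating promoters and enhancers in run-on data. Each peak has a position, a width and the authors' score, which has no unit and was used only to rank peaks within a list, as a percentile.

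The ligands of this superfamily are secreted as dimers that are cut from larger precursors. They bind pairs of type I and type II serine/threonine kinase receptors, which phosphorylate Smad proteins that then enter the nucleus. TGF-beta isoforms, activins, Nodal and several growth and differentiation factors (GDFs) act mainly through Smad2 and Smad3, and the BMPs through Smad1, Smad5 and Smad9. In the fetal liver BMP signals act in hepatic specification and later in iron regulation, and in the yolk sac BMP4 and TGF-beta1 are known for their part in blood island and vessel formation. The list includes 4 genes that are not ligands in the strict sense. Bmp1 encodes a procollagen C-proteinase, Lefty1 and Lefty2 encode inhibitors of Nodal, and Inha encodes the subunit that turns an activin into an inhibin.

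The lists differed in length, with 24863 and 24333 liver peaks beside 50525 and 43055 yolk sac peaks. Peaks at an annotated start made up 52.8% and 55.8% of the liver lists and 33.5% and 37.3% of the yolk sac lists. How many reads each list rests on is unknown, so absence of a peak means that none was called. Of 6 erythroid marker genes, 6 and 6 had a promoter peak in the liver libraries and 2 and 2 in the yolk sac libraries. Of 6 markers of yolk sac endoderm, 4 and 2 had a promoter peak in liver and 6 and 6 in yolk sac. Mesenchymal markers were called at 2 and 5 of 6 genes in liver and at 6 and 6 in yolk sac. The mesothelial and stellate markers were called at 3 and 3 of 6 in liver and at 5 and 6 in yolk sac, and the macrophage markers at 3 and 3 against 6 and 5. Hepatocyte markers were called at 5 and 4 of 6 in liver and at 6 and 6 in yolk sac, and endothelial markers at 5 and 6 against 6 and 6. Their part in the results on the ligand genes was not tested. In whole tissue, fewer cells of a type and less transcription per cell cannot be told apart. With 2 libraries against 2 there are 6 assignments of libraries to tissues, and the smallest two-sided exact permutation p is 0.333. No single gene could therefore pass a threshold, and each difference is read against how far the replicates differed.

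The sequences that lie just before the starts of members whose peaks differed between tissues, or were present in all 4 libraries, are shown first. They are the 250 bases upstream of the RefSeq start (GRCm38.p6), 5′ to 3′ on the gene's strand, with capitals marking matches to the 9 motifs searched on both strands. Of the 33 genes, 21 had an entry in the RefSeq promoter table. Inhbb (minus strand, chr1:119422249-119422498) had promoter peaks only in yolk sac, and Bmp10 (plus strand, chr6:87428744-87428993) only in liver. Gdf15 (minus strand, chr8:70632457-70632706) and Bmp4 (minus strand, chr14:46390670-46390919) had the highest-ranked peaks among the genes called in all 4 libraries, taking the lowest of the 4 percentiles. At Bmp4 the liver peaks so ranked lay at an internal start. Its liver peaks next to the window shown stood at the 56.8 and 52.4 percentiles. Tgfb2 (minus strand, chr1:186705990-186706239) and Gdf11 (minus strand, chr10:128891719-128891968) were added after their values were seen, for the width and the rank of their peaks.
Inhbb: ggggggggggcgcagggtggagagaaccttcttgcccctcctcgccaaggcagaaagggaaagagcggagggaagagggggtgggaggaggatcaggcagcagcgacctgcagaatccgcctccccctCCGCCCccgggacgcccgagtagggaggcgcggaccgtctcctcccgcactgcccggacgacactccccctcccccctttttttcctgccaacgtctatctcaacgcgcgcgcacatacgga
Bmp10: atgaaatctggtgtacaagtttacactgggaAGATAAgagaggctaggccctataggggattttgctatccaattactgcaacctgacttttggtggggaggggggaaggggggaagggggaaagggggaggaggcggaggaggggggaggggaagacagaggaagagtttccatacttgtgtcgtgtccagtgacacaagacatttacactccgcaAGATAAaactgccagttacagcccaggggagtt
Gdf15: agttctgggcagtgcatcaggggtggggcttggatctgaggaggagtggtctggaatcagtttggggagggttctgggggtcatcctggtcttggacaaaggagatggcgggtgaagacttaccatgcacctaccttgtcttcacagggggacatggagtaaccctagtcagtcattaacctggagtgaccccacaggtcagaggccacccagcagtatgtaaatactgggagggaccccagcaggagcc
Bmp4: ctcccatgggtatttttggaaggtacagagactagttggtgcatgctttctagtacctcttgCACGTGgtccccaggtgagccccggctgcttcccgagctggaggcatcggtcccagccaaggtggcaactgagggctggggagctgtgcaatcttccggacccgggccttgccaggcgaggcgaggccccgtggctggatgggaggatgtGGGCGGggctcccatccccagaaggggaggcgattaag
Tgfb2: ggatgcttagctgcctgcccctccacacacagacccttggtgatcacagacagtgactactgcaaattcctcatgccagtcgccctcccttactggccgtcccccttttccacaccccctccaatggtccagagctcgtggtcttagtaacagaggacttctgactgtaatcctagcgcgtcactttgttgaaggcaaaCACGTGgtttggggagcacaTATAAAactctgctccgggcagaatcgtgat
Gdf11: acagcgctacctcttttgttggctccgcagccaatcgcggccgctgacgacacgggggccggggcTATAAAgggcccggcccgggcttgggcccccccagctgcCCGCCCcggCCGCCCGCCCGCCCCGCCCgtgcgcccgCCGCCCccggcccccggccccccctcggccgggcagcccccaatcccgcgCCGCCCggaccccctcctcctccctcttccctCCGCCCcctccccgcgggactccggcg

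In these windows the capitals mark a GC box (GGGCGG, here on the opposite strand) 122 bases before the Inhbb start. The Bmp10 window holds AGATAA, the core bound by GATA factors, at 219 and 33 bases before the start. The Bmp4 window holds an E-box (CACGTG) 188 bases and a GC box 38 bases before the start, and the Tgfb2 window a TATA box (TATAAA) 31 bases and an E-box 51 bases before it. The Gdf11 window holds TATAAA 185 bases before the start and GC boxes between 146 and 27 bases before it, some of which overlap each other. None of the 9 motifs matched in the Gdf15 window. The window before the RefSeq start of Bmp6, which is not shown because it lies in an annotated untranslated region, had an E-box 127 bases and a GC box 93 bases before the start.

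The motifs were also counted over all members with an entry, at 1 RefSeq start per gene, the one with a peak nearby in the most libraries. A second RefSeq start of Gdf15, outside this count, had CACGTG 83 bases before it. GGGCGG was present at 10 of the 21 members and in 44.1% of 20150 RefSeq promoters of protein-coding genes. TATAAA was present at 5 members against 11.2% of all, AGATAA at 3 against 8.62%, CACGTG at 3 against 6.78% and TGANTCA (AP-1) at 1 against 6.13%. The Smad palindrome GTCTAGAC matched at 0 members and in 0.184% of all promoters. The FOXA letters TGTTTAC (2.60% of all), the HNF4 letters TGNACTTTG (1.15%) and the PU.1 letters GAGGAAGT (2.28%) also matched at 0 members. The median GC content of the members' windows was 58.8%, against 56% over all promoters, and the median ratio of observed to expected CpG was 0.45 against 0.551. Bmp6 and Inhbb, with promoter peaks only in yolk sac, had GC contents of 68.8% and 68% and CpG ratios of 0.74 and 0.73, whereas Bmp10 had 52% and 0.21. These are descriptions of 3 genes, and nothing was tested on them.

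A promoter peak, meaning a peak that overlapped 500 bp either side of any annotated start, was found at 18 and 20 of the 33 genes in the liver libraries and at 22 and 20 in those of yolk sac. The means were 19 ± 1.41 and 21 ± 1.41 genes (SD, n = 2), and the tissues overlapped at 20. The shares were 54.5%, 60.6%, 66.7% and 60.6%, beside 56.1%, 57.9%, 63.8% and 62.5% of all protein-coding genes in the same libraries. By library pattern, 14 genes (42.4%) were called in all 4 libraries, against 53.8% of all protein-coding genes. At 8 genes (24.2%) no library had a promoter peak, against 34.2% of all. Tgfb3, Bmp6 and Inhbb were called in yolk sac alone (both of its libraries, no liver library), which is 9.09% of the list against 5.26% of all genes. Bmp10, Gdf3 and Lefty1 were called in liver alone (both of its libraries, no yolk sac library), 9.09% against 1.01%. The remaining 5 genes had mixed patterns, and for 3 of them, Gdf6, Gdf10 and Nodal, the only library without a peak was liver 1. Using only the better-scored 50% of each list left 8 yolk-sac-only and 1 liver-only ligand genes, where the shares of all protein-coding genes were 8.85% and 1.32%. Holding every list to its top 24333 peaks left 1 and 4, where the shares of all genes were 2.61% and 3.01%. By the peak midpoint 5 were liver-only, against 2.05% of all genes. They included Bmp4 and Bmp5, whose yolk sac peaks still overlapped a start but had midpoints outside the promoter windows. Without liver replicate 2 the yolk-sac-only genes numbered 6, against 7.48% of all genes.

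**Figure D1:**
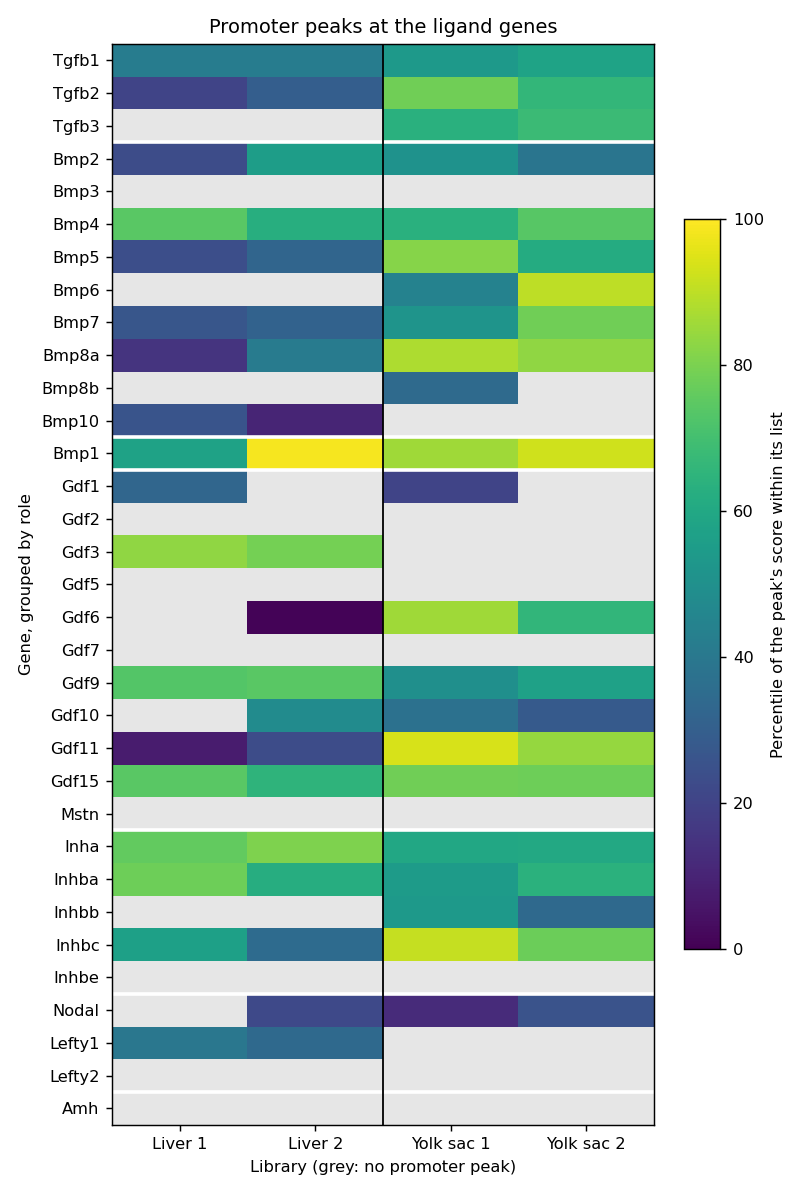
Percentile of the score of the highest promoter peak within its own list (colour, 0 to 100) for the 33 genes (rows, grouped by role) in the 4 libraries (columns), with grey where no promoter peak was called. Tgfb3, Bmp6 and Inhbb are grey in both liver columns, and Bmp10, Gdf3 and Lefty1 in both yolk sac columns.

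Of the 3 TGF-beta isoforms, Tgfb1 and Tgfb2 were called in all 4 libraries and Tgfb3 in yolk sac only. Tgfb1 (chromosome 7, 25687002 to 25705077, plus strand), the isoform of immune and endothelial cells, had a broad promoter peak in every library, of 3152 and 3052 bp in liver and 3452 and 3402 bp in yolk sac. Its peak stood at the 41.8, 42.0, 53.9 and 57.8 percentiles of the 4 lists, in the order liver 1, liver 2, yolk sac 1, yolk sac 2, which is kept below. A second peak at the 3′ end of Tgfb1, over coding and untranslated exon sequence, at 25703401 to 25706202, was called in all 4 libraries, at the 10.1 and 11.1 percentiles in liver and the 95.3 and 97.4 in yolk sac. It was singled out after its values were seen.

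Tgfb2 (chromosome 1, 186622792 to 186705989, minus strand) is required for heart and vessel development. Its promoter peak was 352 and 602 bp wide in liver and 4002 and 3752 bp in yolk sac. The means were 477 ± 177 and 3877 ± 177 bp (SD, n = 2), an 8.13-fold difference, with no overlap of the tissues. In liver the peaks lay 48 bp downstream of a start that is 289 bp inside the gene. In yolk sac the peaks covered the 5′ end and ran on into the gene. The antisense gene Gm29491 shared this peak, and the lists do not separate strands. The percentiles were 20.6, 29.9, 78.2 and 66.1.

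Tgfb3 (chromosome 12, 86056745 to 86079041, minus strand), which acts in palate fusion and lung development, had promoter peaks of 2252 and 1802 bp in yolk sac, at the 63.5 and 68.1 percentiles. The gene Gm48008 shared these peaks, and the lists do not say which gene they belong to. In liver the nearest peak to a Tgfb3 start was 141360 and 141410 bp away. The call was the same under each alternative processing that was run.

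Among the 9 BMP ligand genes, 5 were called in all 4 libraries, Bmp6 in yolk sac only, Bmp10 in liver only, Bmp8b in 1 library and Bmp3 in none. Bmp4 (chromosome 14, 46383520 to 46390669, minus strand), needed for mesoderm and blood formation, had 2 separate promoter peaks in each liver library. The wider was 1102 and 1652 bp, over internal starts, and the other was 752 bp in both libraries, at the upstream starts. In yolk sac a single peak of 5452 and 5402 bp covered both places, at the 63.5 and 74.1 percentiles, against 74.5 and 62.7 in liver. The percentile ranges of the tissues overlapped, while the widths did not (1377 ± 389 against 5427 ± 35.4 bp, SD, n = 2). The gene Gm15222 shared this peak.

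Bmp2, a regulator of cardiac and bone development, and Bmp7, a factor for kidney and eye, were called in all 4 libraries. Bmp2 peaks were 352, 1102, 1402 and 1402 bp wide at the 23.1, 55.5, 51.0 and 38.9 percentiles, so that in rank the liver libraries lay on either side of both yolk sac libraries. Bmp7 peaks were 852, 902, 1202 and 1202 bp wide at the 26.7, 31.4, 51.8 and 78.5 percentiles. At Bmp7 both the widths and the ranks were higher in both yolk sac libraries.

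Bmp5 and Bmp8a showed narrow liver peaks beside wide yolk sac peaks. Bmp5 (chromosome 9, 75775364 to 75900310), known from the short-ear mouse mutant, had peaks of 202 and 402 bp in liver and 1652 and 1352 bp in yolk sac, a 4.97-fold difference of means, at the 24.2, 32.4, 81.9 and 61.6 percentiles. Bmp8a (chromosome 4, 123312645 to 123343252), a gene of the germ line, had peaks of 102, 852, 1502 and 1352 bp at the 14.8, 41.7, 87.5 and 83.5 percentiles. The liver SD of Bmp8a width was 530 bp, since liver 1 had only the shortest peak. Its near copy Bmp8b had a promoter peak only in yolk sac 1, of 902 bp at the 34.8 percentile, and how reads common to both copies were placed is not given in the sources used here.

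Bmp6 (chromosome 13, 38345107 to 38500302, plus strand), which raises hepatic hepcidin in response to iron, had promoter peaks of 1202 and 1102 bp in yolk sac, at the 44.3 and 89.9 percentiles. The 2 yolk sac libraries thus ranked it differently, and with either score filter the Bmp6 call held in 1 of them. In liver no peak was called within the gene or its flanks, and the nearest was 132856 and 131806 bp from a start. Bmp10 (chromosome 6, 87428994 to 87437677, plus strand), a circulating ligand that acts on endothelium through ALK1, had the reverse pattern. Its liver peaks were small, of 452 and 402 bp at the 26.1 and 10.4 percentiles, and the nearest yolk sac peaks were 12657 and 34742 bp away. The Bmp10 call was lost when only the better-scored 50% of each list was used.

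Bmp1 (chromosome 14, 70474558 to 70520234, minus strand), which cleaves procollagens and the BMP antagonist chordin, had peaks at its main starts in all 4 libraries, of 1302, 1502, 1752 and 1602 bp at the 57.5, 98.7, 85.8 and 92.8 percentiles. Both liver libraries had another promoter peak, at a start 11448 bp downstream of the 5′ end, of 752 and 852 bp at the 39.0 and 85.2 percentiles. Neither yolk sac library had a peak at that internal start.

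Of the 11 GDF genes, myostatin included, 3 were called in all 4 libraries, 4 in none, 1 in liver only and 3 in other combinations. Gdf15 (chromosome 8, 70629393 to 70632456, minus strand), a stress-induced hormone, had peaks of 3902, 3652, 4102 and 3902 bp at the 74.3, 65.2, 78.5 and 78.0 percentiles. The gene is 3.06 kb long, so its peaks covered the whole gene, and the widths of the tissues overlapped. Gdf11 (chromosome 10, 128882295 to 128891718, minus strand), a patterning factor of the axial skeleton, had peaks of 252 and 502 bp in liver and 1202 and 802 bp in yolk sac. Its ranks were the 7.57 and 23.1 percentiles in liver and the 93.9 and 84.4 in yolk sac. This was the widest gap in rank among the 14 genes called in all 4 libraries, at 73.8 percentile points between the tissue means (15.3 ± 10.9 against 89.1 ± 6.75, SD, n = 2).

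Gdf9, an oocyte factor, was the 1 gene of the 14 called in all libraries whose promoter peak was wider in both liver libraries, at 1752 and 1802 bp against 1602 and 1402 bp. Its percentiles were 73.1, 74.5, 49.9 and 57.1. The peak is shared with Uqcrq, a subunit gene of respiratory complex III that starts next to Gdf9, and the lists do not say which gene it belongs to. Gdf3 (chromosome 6, 122605403 to 122610087, minus strand), a Nodal-related ligand of pluripotent cells, was called in liver only, with peaks of 802 and 952 bp at the 83.2 and 79.2 percentiles. In yolk sac the nearest peak was 6672 and 6722 bp from a Gdf3 start. The Gdf3 call was the same under each alternative that was run.

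Gdf6, Gdf10 and Gdf1 were called in part of the libraries. Gdf6, which acts in joint and eye formation, had a peak of 102 bp at the 1.04 percentile in liver 2 and peaks of 1202 and 902 bp at the 85.9 and 65.8 percentiles in yolk sac. Gdf10 was called in liver 2 (652 bp, 48.4 percentile) and in both yolk sac libraries (702 and 652 bp, 37.3 and 28.2 percentiles). Gdf1, a left-right patterning factor, was called in liver 1 (602 bp, 33.0 percentile) and yolk sac 1 (952 bp, 20.6 percentile). Its annotation lies within that of Cers1, a ceramide synthase gene with which it is known to share a transcript, so these peaks are uncertain for Gdf1. Gdf2 (BMP9), Gdf5, Gdf7 and Mstn, the gene of myostatin, had no promoter peak in any library.

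Of the 5 activin and inhibin subunit genes, Inha, Inhba and Inhbc were called in all 4 libraries, Inhbb in yolk sac only and Inhbe in none. Inhba (chromosome 13, 16011851 to 16031621, plus strand), the subunit of activin A, had peaks of 1502, 1352, 1352 and 1152 bp at the 78.0, 62.2, 54.9 and 64.0 percentiles, and the tissues overlapped in both measures. Inhbb (chromosome 1, 119415465 to 119422248, minus strand), the subunit of activin B, had peaks of 1752 and 702 bp in yolk sac, at the 54.3 and 34.4 percentiles. The nearest liver peak to its start was 81553 and 81653 bp away. With either score filter, and by the peak midpoint, the Inhbb call held in 1 of the yolk sac libraries. Inhbc (chromosome 10, 127356322 to 127370431, minus strand), a subunit known from liver, had peaks of 952 and 852 bp in liver and 1452 and 1452 bp in yolk sac, at the 56.8, 34.8, 91.3 and 77.7 percentiles.

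The calls at Inha and Inhbe depended on where the start was placed. The peak counted for Inha, the inhibin alpha subunit, ended between 25 and 125 bp before its start and is shared with Obsl1, a cytoskeletal adaptor gene on the other side. Its widths were 1902, 2452, 3752 and 2252 bp, and its percentiles were 75.9, 80.8, 60.1 and 60.3. Inhbe, a subunit gene expressed in hepatocytes, had its nearest peaks 1040, 1040, 840 and 790 bp from the annotated start. With a window of 1000 bp it would count as called in yolk sac only. By its RefSeq start, which differs from the annotated one, a peak lay within 500 bp in liver 2 only. The absence of a call at Inhbe thus rests on the window and on the start used. At the RefSeq start of Inha no library had a peak within 500 bp.

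Nodal, the ligand of early axis formation, had weak promoter peaks in 3 libraries, of 402 bp at the 22.1 percentile in liver 2 and of 252 and 352 bp at the 12.2 and 25.7 percentiles in yolk sac. Lefty1, its inhibitor, had liver peaks of 1352 and 752 bp at the 39.5 and 34.0 percentiles, at a start 1849 bp downstream of its 5′ end. No peak was called at the 5′ end of Lefty1 itself, and in yolk sac the nearest peak to a start was 4630 and 4580 bp away. The Lefty1 call was lost when only the 5′ end counted as a start, and when only the better-scored 50% of each list was used. Lefty2 and Amh, the gene of anti-Müllerian hormone, had no promoter peak in any library. A peak in the body of Amh, over coding exons and an untranslated region, was called in all 4 libraries at the 61.4, 95.1, 64.2 and 67.1 percentiles.

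Over the 14 genes called in all 4 libraries, the narrower yolk sac promoter peak exceeded the wider liver one at 10 genes, where 35.6% of 11805 genes called in all 4 libraries met the same rule. It was wider in both liver libraries at 1 gene, Gdf9, against 20.7%, and the tissues overlapped at 3, Gdf15, Inha and Inhba. The median width over these genes was 1127 ± 141 bp (SD, n = 2) for liver and 1527 ± 141 bp for yolk sac, against 1627 and 1702 bp over all 11805 genes. The score percentile was higher in both yolk sac libraries at 8 genes, against 34.4% of the 11805. It was higher in both liver libraries at Gdf9 and Inha, against 22.1%. The median percentile was 49.0 ± 0.393 (SD, n = 2) for liver and 70.5 ± 0.524 for yolk sac, against 68.6 and 73.1 over all genes. Ranks in lists of different length do not show a change by themselves. When every list was held to its top 24333 peaks by score, 11 ligand genes were called in all 4 libraries. Their median percentiles within the shortened lists were 49.0 and 54.7, against 70.6 and 53.8 over all genes.

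**Figure D2:**
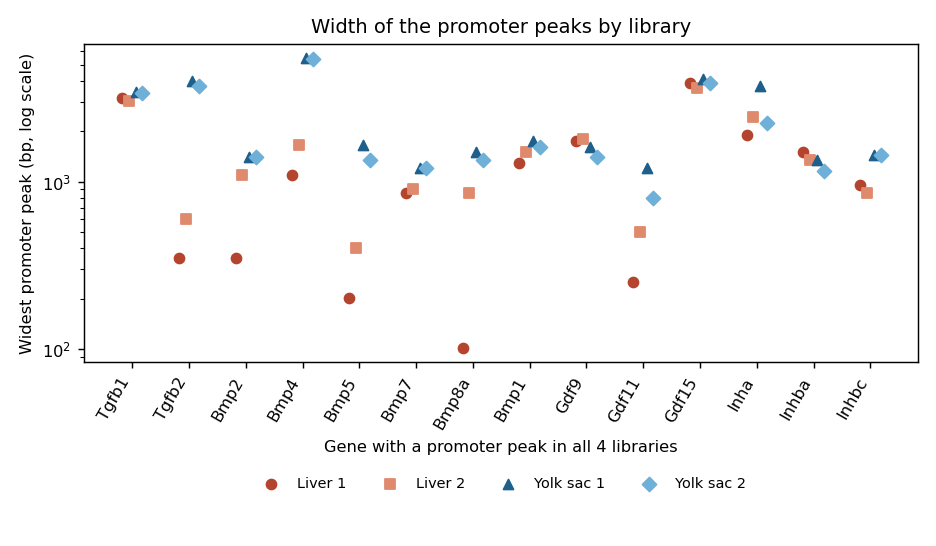
Width of the widest promoter peak in bp on a log scale for the 14 genes with a promoter peak in all 4 libraries, 1 point per library (red tones liver, blue tones yolk sac). At Tgfb2 the liver points are at 352 and 602 bp and the yolk sac points at 4002 and 3752 bp, whereas at Gdf15 and Inhba the points of the tissues overlap.

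Distal peaks, which meet no promoter window of any gene, were counted in each gene and 20 kb on either side of it. The union of the 33 intervals held 28 and 32 distal liver peaks and 57 and 48 distal yolk sac peaks, with means of 30 ± 2.83 and 52.5 ± 6.36 (SD, n = 2). The ratio of 1.75 was lower than the 2.70 of all distal peaks of the genome, which are not limited to genes and 20 kb around them. Totals over the intervals of all protein-coding genes are not given, so the gap cannot be read as a trait of the ligand genes. Of 1000 distal peaks of a list, 2.39 and 2.98 lay in these intervals in liver and 1.70 and 1.78 in yolk sac. Counts were higher in both yolk sac libraries at Tgfb1, Tgfb2, Bmp4, Bmp6, Bmp7, Bmp8b, Gdf11, Gdf15, Inha and Nodal, or 10 genes, against 30.7% of all protein-coding genes. They were higher in both liver libraries at Gdf1, Gdf3, Inhba, Inhbc, Inhbe and Amh, or 6 genes, against 5.4% of all. Without yolk sac replicate 2 the first count was 17, and without yolk sac replicate 1 it was 11. Leaving out a library loosens the rule for every gene, and the 30.7% is for all 4 libraries, so it does not apply to these 2 counts. The direction of the total was not the same under each score filter. When every list was held to its top 24333 peaks by score, the intervals held 28 and 32 liver peaks and 15 and 20 yolk sac peaks. In the better-scored 50% of each list they held 6 and 4 against 17 and 15.

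**Figure D3:**
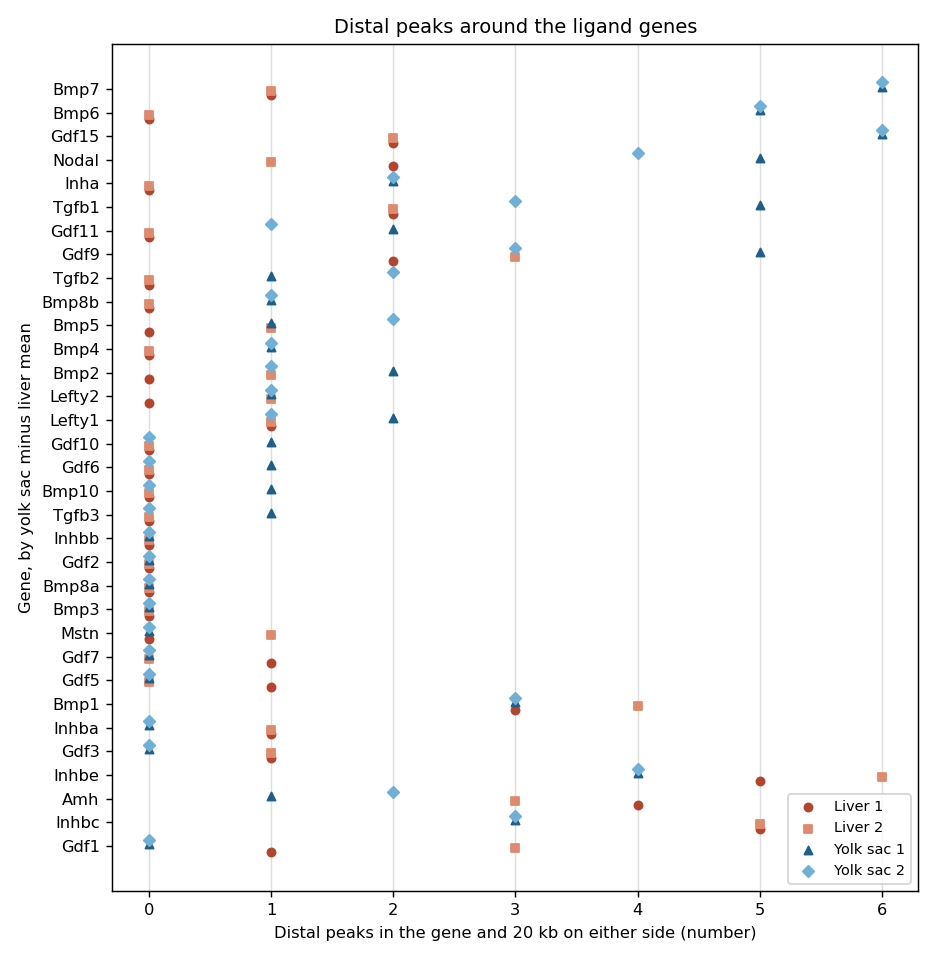
Number of distal peaks in each gene and 20 kb on either side of it (horizontal axis), 1 point per library, for the 33 genes ordered by the yolk sac mean minus the liver mean. Bmp7, Bmp6 and Gdf15 have 6, 5 and 6 peaks in both yolk sac libraries and 1, 0 and 2 in both liver libraries, and Gdf1, Inhbc and Amh lie at the other end.

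Bmp6, Bmp7 and Gdf15 had the widest yolk sac excess. Bmp6 had 0 and 0 distal peaks in the liver libraries, against 5 and 5 in the yolk sac libraries, all 5 regions within the gene between 19.1 and 109 kb from its 5′ end. The 5 regions overlapped no exon of Bmp6, and the one nearest the 3′ side overlapped an exon of the transcript 4930579J19Rik. The strongest, at chr13:38450201-38451502, stood at the 94.3 and 96.8 percentiles of the yolk sac lists, above the Bmp6 promoter peaks themselves. Bmp7 (chromosome 2, 172868012 to 172940321, minus strand) had 1 distal peak in each liver library and 6 in each yolk sac library. The strongest distal region in the Bmp7 gene, in an intron at chr2:172912451-172915202 and 26.5 kb from the 5′ end, stood at the 85.4 and 78.4 percentiles. A region 83.4 kb from the 5′ end, past the 3′ end of Bmp7, was also called in both yolk sac libraries only, at the 75.2 and 58.6 percentiles. A region 77.1 kb from the 5′ end counted as distal in yolk sac 2, at the 95.7 percentile, and as a promoter peak of Gm22773 in yolk sac 1, at the 83.5 percentile, so the 6 distal peaks of the 2 libraries are not all at the same places. The small peak at 1.64 kb in Bmp7 was common to all 4 libraries.

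Gdf15 had 2 distal peaks in each liver library and 6 in each yolk sac library. The regions called in both yolk sac libraries only were at chr8:70635451-70635952, between genes, and at chr8:70647351-70647802 and chr8:70649201-70649902, both in untranslated exons of the upstream neighbour Pgpep1. Their percentiles lay between 30.4 and 44.3. Each yolk sac library also had 1 distal peak at Gdf15 that the other lacked. A region called in all 4 libraries, at chr8:70636651-70637752, had percentiles of 48.0, 50.5, 47.2 and 44.9.

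The widest liver excess was at Gdf1, Inhbc and Amh. Amh (chromosome 10, 80805243 to 80807648, plus strand) had 4 and 3 distal peaks in the liver libraries and 1 and 2 in those of yolk sac. The liver-only regions were intergenic, at chr10:80818451-80819952, at the 97.1 and 80.8 percentiles, and at chr10:80824001-80824802, at the 32.9 and 26.1 percentiles. The second of these lay close to Oaz1, a gene of polyamine metabolism whose promoter peak was called in all 4 libraries. Inhbc had 5 distal peaks in each liver library and 3 in each yolk sac library, with a liver-only region in an intron at chr10:127359801-127360452, at the 10.9 and 20.9 percentiles. Inhbe, the next gene, had 5 and 6 against 4 and 4, and its interval overlaps that of Inhbc, so the regions they share count at both. Gdf1 had 1 and 3 against 0 and 0, with a liver-only region in an intron of Cers1 at chr8:70327551-70328252, at the 15.1 and 4.33 percentiles. Of the 3 liver 2 peaks, 1 lay at the 1.95 percentile in the region that counted as the Gdf1 promoter in liver 1 and yolk sac 1. Another, 102 bp wide at the 15.6 percentile, was called in liver 2 only. Inhba had a liver-only region at chr13:16008451-16008852, at -3.2 kb from its 5′ end and at the 16.0 and 28.4 percentiles, named after its values were seen. The 2 liver peaks counted at Gdf3 lay at different places in the 2 libraries.

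Nodal had 2 and 1 distal peaks in the liver libraries and 5 and 4 in those of yolk sac. Some of these peaks lay over exons of Nodal or within the gene Eif4ebp2. The highest-ranked region was called in both tissues and ranked higher in liver. The region at chr10:61412701-61413952, between genes and at -4.65 kb from the 5′ end of Nodal, was called in all 4 libraries. It stood at the 99.2 and 99.3 percentiles in liver and at the 42.0 and 28.4 in yolk sac, while the Nodal promoter peak did not pass the 25.7 percentile in any list. The Lefty2 flank showed the opposite order. A region at chr1:180888351-180889302, at -4.28 kb from the Lefty2 5′ end, was not called in liver 1 and stood at the 43.8 percentile in liver 2 and at the 98.5 and 97.5 in yolk sac. Neither of these regions was assigned to a gene by more than distance. At Inha, both yolk sac libraries had a region at chr1:75511101-75512202, downstream of the gene, at the 77.7 and 79.2 percentiles. These 3 regions were singled out after their values were seen.

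**Figure D4:**
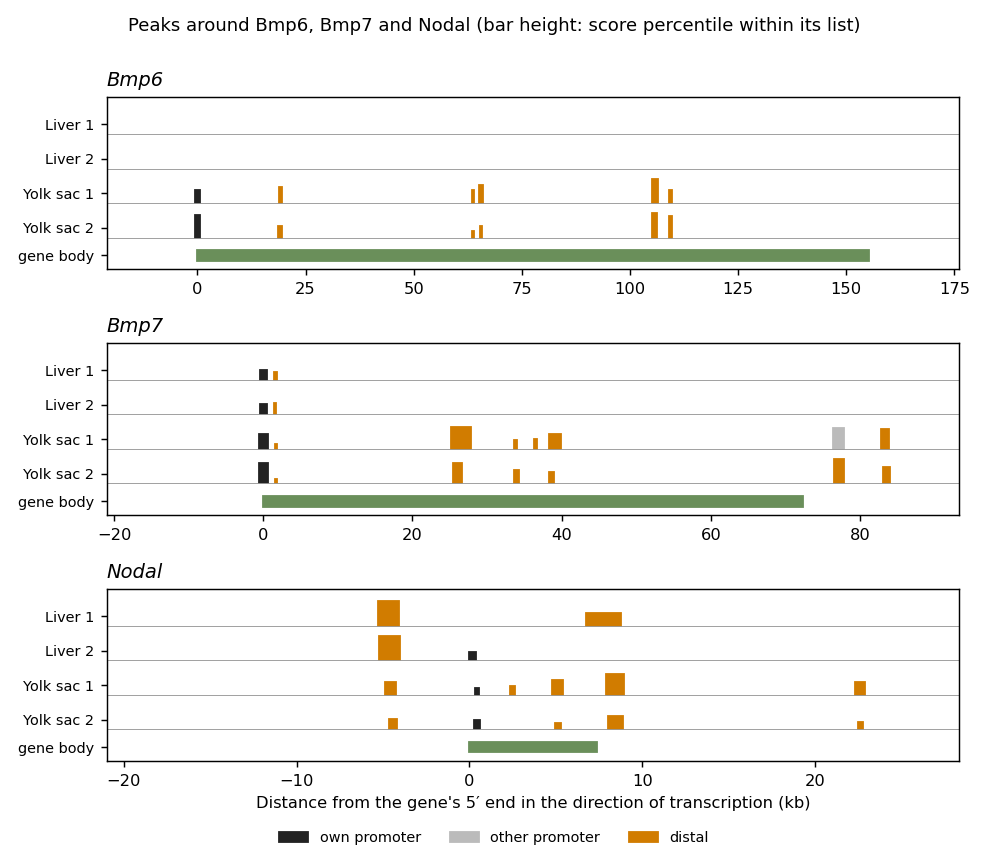
Peaks at Bmp6, Bmp7 and Nodal by library, placed by distance from the gene's 5′ end in kb in the direction of transcription, with the gene body in green and the height of a bar showing the percentile of its score within its list. Bmp6 has no liver peak, Bmp7 shares its promoter peak and a peak at 1.64 kb across libraries, and the tallest liver bars lie at -4.65 kb from Nodal.

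Merging all peaks of the 4 lists, and keeping the merged regions that met no promoter window, gave 77 distal regions in the intervals. A distal peak that overlapped a promoter peak of another library is thus left out, such as the yolk sac 2 peak 77.1 kb from the Bmp7 5′ end. All 4 libraries called 14 of the 77 (18.2%, against 8.92% of 42751 distal regions of the genome). The regions of the genome are not limited to genes and 20 kb around them, so these sets are unlike. Both yolk sac libraries alone called 21 (27.3% against 40.3%), both liver libraries alone 6 (7.79% against 8.01%) and 1 library alone 29 (37.7% against 35.6%). Bmp3, Bmp8a, Gdf2 and Inhbb had no distal peak in any library. At the other 13 genes of the 17 whose tissues overlapped, the counts ran from 0 to 5 per library.

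The receptors, Smads and regulators that act with these ligands were counted in the same way. Of 71 such genes, every library called 47 (66.2%), against 53.8% of all protein-coding genes. No library called 15, against 34.2% of all. Both yolk sac libraries alone called 3, against 5.26% of all, and both liver libraries alone 1, against 1.01%. The other 5 had other patterns. The difference from the 42.4% of the ligand genes called in all 4 libraries was not tested. The type I receptors were called in all 4 libraries at 5 of 7 genes, the type II receptors at 4 of 5, and the Smads at 7 of 8. The transcriptional targets, such as the Id genes, were called in all 4 at 12 of 13, and Hamp, the gene of hepcidin, was called in none. The secreted antagonists were called in all 4 at 6 of 16 and in none at 8, which include Nog, Grem1 and Cer1. More distal peaks in both yolk sac libraries were counted at 31 of the 71 genes, against 30.7% of all protein-coding genes. More in both liver libraries were counted at 3, against 5.4% of all. Without liver replicate 2 the yolk-sac-only pathway genes numbered 7, where the share of all protein-coding genes was 7.48%. Without liver replicate 1 the liver-only genes numbered 2, where that share was 1.31%.

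**Figure D5:**
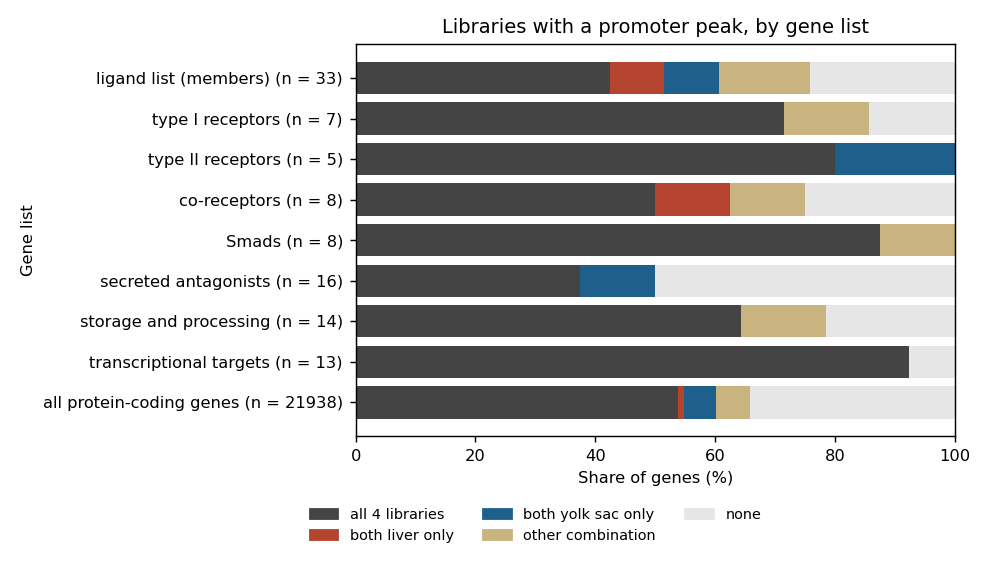
Share of genes (%) by the libraries with a promoter peak, for the ligand list, 7 lists of other genes of the pathway and all protein-coding genes, with the number of genes in each list. The ligands and the secreted antagonists have the smallest shares called in all 4 libraries, 42.4% and 37.5%.

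The pathway genes called in yolk sac only included Nbl1 and Amhr2. Nbl1, which encodes a secreted BMP antagonist, had peaks at the 98.0 and 98.5 percentiles of the yolk sac lists. Amhr2, the receptor of anti-Müllerian hormone, had a peak of 1202 and 1452 bp at the 99.2 and 99.0 percentiles near its start. That call was not kept with a window of 1000 bp, where all 4 libraries were called, or of 250 bp, where only yolk sac 2 was. By the peak midpoint or with the 5′ end alone, no library had a call at Amhr2. The liver-only gene was Hjv (hemojuvelin, annotated as Hfe2), a BMP co-receptor of iron regulation, at the 67.6 and 64.3 percentiles. Its peaks were 3052 bp wide in both liver libraries, and the call was lost by the peak midpoint. Hjv was thus called in liver, where Bmp6 was not, and Bmp6 in yolk sac, where Hjv was not.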

How the data were processed

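Peak lists from 4 PRO-seq libraries were analysed. Each list holds the chromosome, start, end and score of dREG peaks as the authors deposited them, and the deposited score is a number without a unit whose lowest value was 0.80 in each list. The submitters' processing notes name Bowtie2, bedtools and the build mm10, and the dREG version and filters are not given in the sources used here. The lists were made per library, hold no read counts and leave depth unknown, so no counting interval is given. Genes came from GENCODE release 21 of mouse (GRCm38), with 132721 starts of 55413 genes, on chromosomes 1 to 19, X and Y, and positions are 1-based. A promoter peak overlapped 500 bp either side of any start by at least 1 bp. Distal peaks met no promoter window of any gene and were assigned by their midpoint to a gene and 20 kb on either side. Scores were turned into percentiles within a list. Python 3.11.15, numpy 2.4.6, pandas 2.3.3 and matplotlib 3.10.9 were used. The promoter calls were run on simulated lists, with peaks planted only at genes with 1 start and no start of another gene close by. That run does not cover peaks shared between genes or genes with several starts. Groups follow the labels, with 2 libraries per tissue. Alternatives were windows of 250 and 1000 bp, the better-scored 50% of each list, its top 24333 peaks by score, the peak midpoint, the 5′ end alone, flanks of 10 and 50 kb, each library left out in turn, and a block on replicate number. The members, the gene lists, the motifs and the rule for naming genes were chosen with earlier results of these data known. By that rule every member is accounted for, pathway genes are named where 1 tissue alone was called in both libraries, and distal regions are named at the 3 members with the largest difference in each direction. Regions and sequences outside the rule are marked as such, and 1 gene that the rule would name is not reported here. Sequences are from RefSeq, and windows that overlap an annotated untranslated region are not shown.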

Additional observations from a re-analysis of the deposited data

How the results depend on the processing

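A value counted as moved when it changed by more than the spread between replicates, and a count when it changed by more than 1.5 times. A call at a single gene counted as moved at any change while all 4 libraries were kept. With 1 library left out, not every such change was counted. At Gdf10 without liver replicate 2, the share of libraries called (yolk sac minus liver) went from 0.5 to 1 and was not counted. The direction reversed in 3 results that answer a comparison. With every list held to its top 24333 peaks by score, the log2 ratio of distal peaks (0.81) became -0.78 and the difference in ligand genes with a promoter peak (2) became -4. By the peak midpoint that difference was -0.5. In the better-scored 50% the difference in median percentile (21.4 over 14 genes with all peaks) was -2.19. That value covers the 5 ligand genes still called in all 4 libraries, with percentiles taken anew within the shortened lists. With 24333 peaks the percentile difference was 5.77, over 11 ligand genes. The intervals with more yolk sac peaks fell from 10 to 4, and the share of all protein-coding genes under this setting is not given. Yolk-sac-only ligand genes fell from 3 to 1, where the share of all genes was 2.61% (5.26% with all peaks). Liver-only pathway genes rose from 1 to 3, where that share was 3.01% (1.01% with all peaks). In the better-scored 50% the log2 ratio was 1.68 and the difference in ligand genes 8. The width difference was 1425 bp over the same 5 genes (400 bp over 14 genes with all peaks). There were 8 yolk-sac-only and 1 liver-only ligand genes, and 14 and 2 such pathway genes against 3 and 1. The shares of all protein-coding genes were then 8.85% and 1.32%. By the midpoint the percentile difference was 31.1, over 10 ligand genes. There were then 5 liver-only ligand genes and 2 liver-only pathway genes, where the share of all genes was 2.05%. With the 5′ end alone the percentile difference was 22.2 and the width difference 575 bp, with 250 bp windows the difference in ligand genes was 0.5, and with 50 kb flanks the log2 ratio was 1.07. Leaving out 1 library at a time gave 10 to 17 intervals with more yolk sac peaks (17 without yolk sac replicate 2), 3 to 6 yolk-sac-only ligand genes and 3 to 7 such pathway genes (both highest without liver replicate 2), and 1 to 2 liver-only pathway genes (2 without liver replicate 1). For the intervals, the share of all protein-coding genes with a library left out is not given. The difference in width with a library left out ran from 300 to 550 bp and that in percentile from 21.1 to 22.6. Both were highest without liver replicate 1, where they cover 17 ligand genes. The causes were not tested, except that fewer peaks or fewer libraries entered by construction. Among single genes, the share of libraries called (yolk sac minus liver) reversed to -0.5 at Gdf10 with 24333 peaks and at Nodal with 250 bp windows and with 24333 peaks. Of the tissue-only ligand genes, Tgfb3 and Gdf3 did not move, Bmp6 and Inhbb fell to 0.5 in both score filters, and Inhbb also by the midpoint.

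With the replicate number as a block the difference in ligand genes was 2 and the log2 ratio of distal peaks 0.805, neither of which moved, and the block was run on these 2 results only. Same-numbered libraries did not deviate together: across genes the correlation of their deviations was -0.0106 for promoter percentiles (11805 genes) and 0.0207 for distal counts (21938 genes), so the numbers were not taken as pairs. The depth of the lists is unknown, and a longer list can bring calls that a shorter list misses.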
